A study of Mus musculus with 24 samples.

Results

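The genes described here bring nascent proteins into the endoplasmic reticulum (ER) and attach, trim and read their N-linked glycans. A list of 45 genes in 10 roles was followed, and a gene was represented by the probe set of its symbol with the highest mean intensity over the 12 cultures, taken from the first of the 2 array designs (MA) where it was present there. Of the 45 genes, 44 had such a probe set (43 on MA and 1, Alg8, on the second design, MB), and all 44 passed the filter on low intensity. Sec61g is named only. The 44 probe sets were among 104 that name a listed gene and among 27081 tested probe sets of 45265 in all.

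The study profiled C2C12 cells, an established mouse myoblast line that can be grown as myoblasts or turned into muscle cells in culture, and its stated interest was how restricted calories bear on the differentiation of skeletal myoblasts. Total RNA of 12 cultures was hybridised to both designs, which gave 24 arrays. There were 3 cultures in each of 4 groups, which the labels name by medium (GM or DM, abbreviations that the labels do not spell out) and glucose: GM with 25 mM, GM with 5 mM, DM with 25 mM and DM with 5 mM. The labels give no genotype, time in culture or passage, nothing says whether the 3 cultures of a group were grown separately, and p-values here therefore measure the spread between these samples, which may be technical.

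Secretory and membrane proteins are led by a signal sequence to the SRP receptor and through the Sec61 channel, where signal peptidase removes the signal and oligosaccharyltransferase (OST) transfers a preassembled sugar tree from a lipid carrier to asparagine. Glucosidases and mannosidases then trim that tree, calnexin and calreticulin bind the trimmed form while the protein folds, and EDEM proteins mark chains that fail for disposal. Many genes of the ER lumen are controlled by the unfolded protein response, whose factor ATF6 acts with NF-Y at the ER stress response element.

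Promoters are shown first for the members whose RefSeq promoter holds such an element and for the pair with the largest changes with glucose in DM, Rpn1 and Prkcsh, which were added after their values were seen. The window ran from 250 bases before to 50 bases after the annotated start (RefSeq, build GRCm38.p6), and 37 of the 45 genes matched, with 39 promoters. In capitals are, for Calr and Canx, the element (CCAAT, 9 bases of any kind, CCACG), for Krtcap2 its second form (ATTGG, 1 base, CCACG), and for Rpn1 each CCAAT and CCACG, on either strand.
Calr, chr8:84846882-84847181, minus strand: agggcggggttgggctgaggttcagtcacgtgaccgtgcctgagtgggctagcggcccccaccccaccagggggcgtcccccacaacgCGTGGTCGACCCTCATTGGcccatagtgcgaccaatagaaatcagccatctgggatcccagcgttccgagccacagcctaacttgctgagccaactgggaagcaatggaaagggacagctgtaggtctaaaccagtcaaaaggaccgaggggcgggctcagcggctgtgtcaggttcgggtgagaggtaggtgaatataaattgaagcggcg
Canx, chr11:50325624-50325923, minus strand: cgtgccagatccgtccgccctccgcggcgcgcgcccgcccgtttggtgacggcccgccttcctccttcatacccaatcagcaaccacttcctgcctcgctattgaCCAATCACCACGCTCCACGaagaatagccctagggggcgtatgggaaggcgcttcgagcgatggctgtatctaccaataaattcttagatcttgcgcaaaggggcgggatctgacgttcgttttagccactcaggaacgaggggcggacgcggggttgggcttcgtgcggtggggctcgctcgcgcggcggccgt
Krtcap2, chr3:89246223-89246522, plus strand: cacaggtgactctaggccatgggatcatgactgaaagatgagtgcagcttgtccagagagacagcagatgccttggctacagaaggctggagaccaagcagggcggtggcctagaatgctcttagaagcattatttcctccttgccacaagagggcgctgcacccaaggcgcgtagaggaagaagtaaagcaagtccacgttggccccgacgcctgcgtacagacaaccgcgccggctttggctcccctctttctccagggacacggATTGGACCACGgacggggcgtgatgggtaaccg
Rpn1, chr6:88084223-88084522, plus strand: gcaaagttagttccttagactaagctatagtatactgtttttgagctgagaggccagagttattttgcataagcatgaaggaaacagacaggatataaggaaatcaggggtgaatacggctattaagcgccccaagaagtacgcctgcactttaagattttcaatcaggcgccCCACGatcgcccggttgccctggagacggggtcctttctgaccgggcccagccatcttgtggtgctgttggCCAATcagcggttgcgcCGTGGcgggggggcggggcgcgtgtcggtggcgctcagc
Prkcsh, chr9:22002738-22003037, plus strand: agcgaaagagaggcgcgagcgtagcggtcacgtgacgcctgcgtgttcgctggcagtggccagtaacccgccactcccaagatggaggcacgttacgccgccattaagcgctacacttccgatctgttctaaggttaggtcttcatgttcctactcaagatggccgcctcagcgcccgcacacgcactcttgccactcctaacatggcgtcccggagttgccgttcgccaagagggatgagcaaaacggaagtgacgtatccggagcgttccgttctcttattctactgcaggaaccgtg
The element lay at bases -162 to -144 from the start of Calr and at -145 to -127 from that of Canx. Its second form lay at bases 18 to 28 after the second of the Krtcap2 starts. Matches to the element occurred in 2 of the 39 member promoters (5.13%), against 0.119% of all 32851 promoters of the table. The second form occurred in 1 of the 39 (2.56%), against 0.0365% of all. The core of the other known element, TGACGTGG, was in 0 of the 39 member promoters and in 0.676% of all. CCAAT alone was in 51.3% of member promoters and 37.4% of all, and CCACG alone, part of the longer motifs, was in 61.5% and 32.8%. Neither of these short motifs was in the Prkcsh window shown. These matches describe letters in a window and no binding was measured.

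Markers of cell state differed between the media. Of 4 myoblast lineage markers, Des and Cdh15 were called higher in DM at both glucose levels, while Myod1 and Myf5 were called at neither. All 5 differentiated muscle markers (Myog, Ckm, Acta1, Myh3 and Mymk) were called higher in DM at both glucose levels, and both proliferation genes, Mki67 and Top2a, were called lower. Of 11 markers of fat, bone, blood and endothelial cells, 8 were below the filter, at 65.3 units or less in all 12 cultures, among them Adipoq, Ibsp, Ptprc and Pecam1. Of the other 3, Cebpa and Cd14 were called lower in DM, and Sp7 was not called. The MA probe set for the 3' end of 18S ribosomal RNA, a control, stood at 23.0 to 48.1 in 4 cultures (GM 5 mM cultures 1 and 2, DM 25 mM culture 3 and DM 5 mM culture 2) and 279 to 1267 in the other 8. The same 4 arrays had a lower maximum intensity, 6719 to 9752 against 17234 to 22957. Low-18S cultures thus made up 0 of 3, 2 of 3, 1 of 3 and 1 of 3 cultures of GM 25 mM, GM 5 mM, DM 25 mM and DM 5 mM, so the glucose comparison in DM had 1 on each side. In bulk RNA, fewer cells of a type and less RNA per cell cannot be told apart.

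Low glucose was first compared with high glucose within DM. Here 5 of the 44 members were called higher and 0 lower. Rpn1, Rpn2, Ddost and Krtcap2 are 4 of the 8 OST subunits on the member list, which leaves out 4 further OST genes. The other was Prkcsh, the beta subunit of glucosidase II that trims glucose from the transferred sugar tree. Group means of these 5 were 1.43 to 1.98 times higher at 5 mM than at 25 mM. A call means a Benjamini-Hochberg adjusted p under 0.05 from limma, fitted over all tested probe sets of a design. Across both designs 0.864% of probe sets were called in this comparison, on MA 1.66%, with 0.626% of MA called higher and 1.03% lower. The members' share was 11.4%. The members were chosen with earlier results of these data known, and each is its gene's brightest probe set, unlike the background. The contrast of shares is therefore a description. The members' median log2 change was 0.18, with 33 of 44 above 0, against a median of 0.02 over all MA probe sets. An unadjusted p under 0.05 (limma) was found for 10 of the 44 members and for 2178 of 27081 probe sets on both designs.

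**Figure D1:**
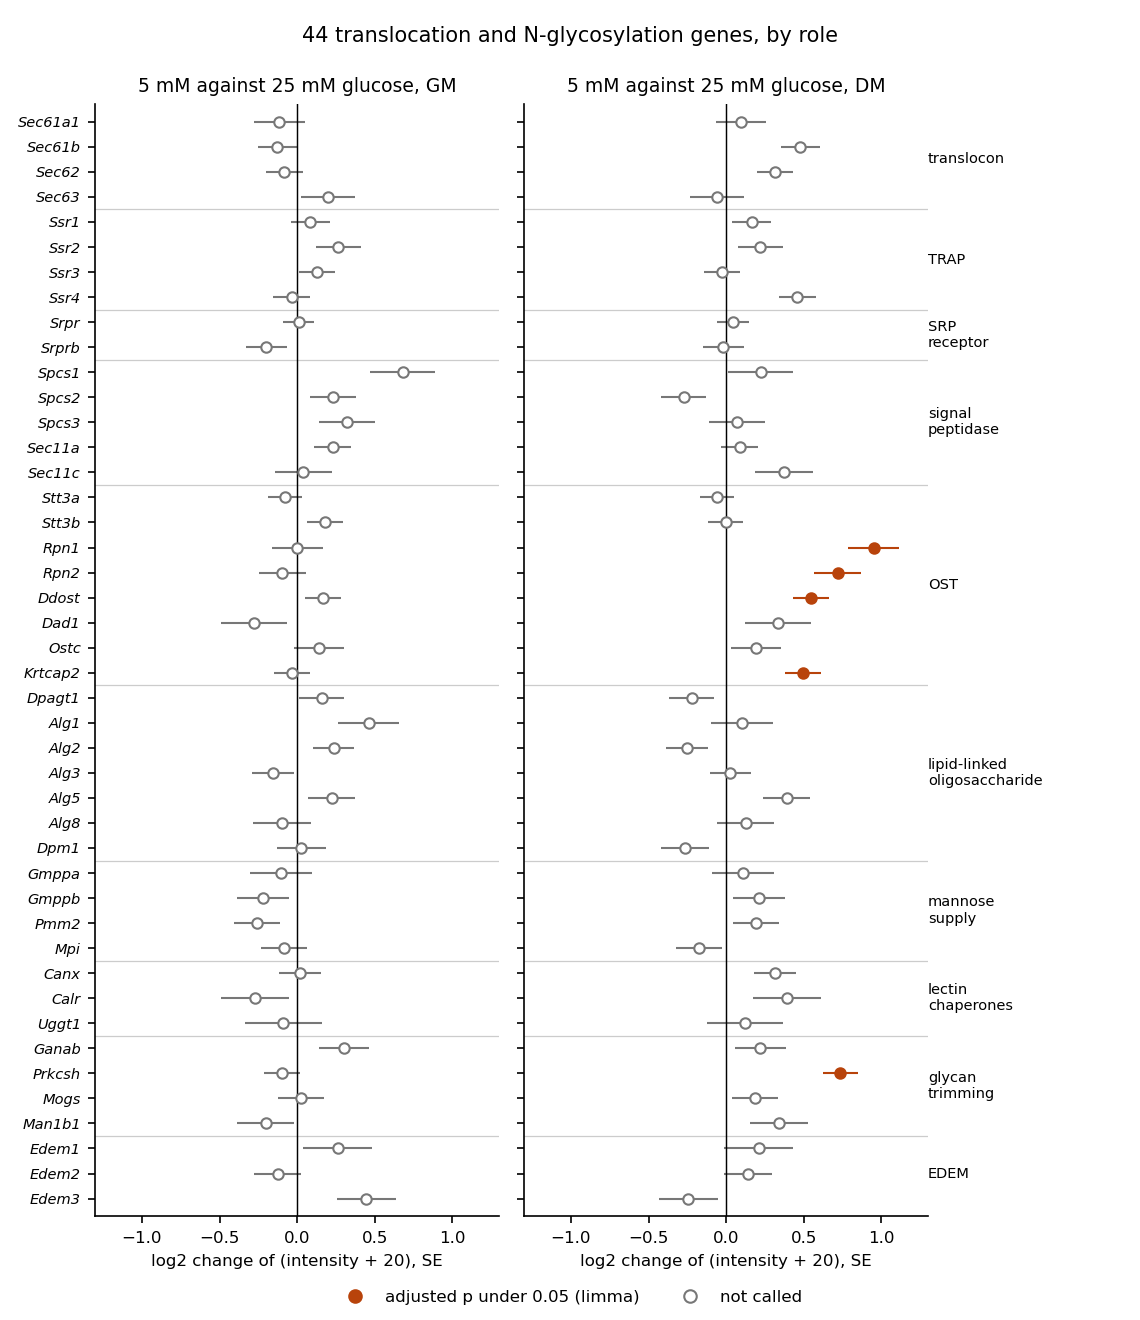
Log2 change of (intensity + 20) from 25 mM to 5 mM glucose, with its SE, for the 44 members grouped by role, in GM (left) and DM (right). Filled points are called (limma, adjusted p under 0.05). The 5 filled points, 4 of them OST subunits, are all in DM and all to the right of 0.

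Within OST the subunits differed from one another. Rpn1, ribophorin I, read 1235, 1178 and 911 in GM at 25 mM, 1025, 1098 and 1182 in GM at 5 mM, 1180.2, 1221 and 1116 in DM at 25 mM, and 2278, 1815 and 2874 in DM at 5 mM. The 3 DM cultures at 5 mM stood above all 9 others, which overlapped. The log2 change with glucose in DM was 0.95 (SE 0.17, adjusted p = 0.00720, limma). Rpn2, ribophorin II, read 595, 597 and 622 in GM at 25 mM, 529, 523 and 651 in GM at 5 mM, 546, 468 and 423 in DM at 25 mM, and 837, 636 and 953 in DM at 5 mM. The DM groups did not overlap, while the low-18S culture of DM 5 mM (636) fell inside the range of GM. Its change was 0.72 (SE 0.15, adjusted p = 0.0247, limma).

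Ddost, the subunit also known as OST48, read 1232, 1149.7 and 1175 in GM at 25 mM, 1374, 1341 and 1285 in GM at 5 mM, 795, 943 and 929 in DM at 25 mM, and 1224, 1272 and 1419.98 in DM at 5 mM. Krtcap2, the KCP2 subunit, read 798, 775 and 726 in GM at 25 mM, 774, 722 and 749.9 in GM at 5 mM, 489, 522 and 504 in DM at 25 mM, and 790.4, 616 and 763 in DM at 5 mM. For both genes the 3 DM cultures at 25 mM were the lowest of all 12. At 5 mM, 1 DM culture of Krtcap2, the low-18S one at 616, lay between the DM 25 mM and GM cultures. The changes with glucose in DM were 0.54 for Ddost (SE 0.12, adjusted p = 0.0267, limma) and 0.49 for Krtcap2 (SE 0.12, adjusted p = 0.0465, limma).

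The catalytic subunits were not called. Stt3a read 382, 423 and 419 in GM at 25 mM, 353, 398 and 403 in GM at 5 mM, 417, 389 and 417 in DM at 25 mM, and 397, 414 and 362 in DM at 5 mM. Stt3b read 903, 798 and 721, then 972, 931 and 843, then 755, 796 and 776, and 792, 776 and 753 in the same order of groups. In both genes the DM groups overlapped, with log2 changes of -0.06 (SE 0.11) and -0.0038 (SE 0.11). Dad1, a small subunit, read 1269.95 and 1379.7 in DM at 25 mM and 1756 and 1619 in DM at 5 mM in the higher-18S cultures, and 809.5 and 1009 in the low-18S culture of each, with a log2 difference of 0.33 (SE 0.21, adjusted p = 0.694, limma). Ostc, the DC2 subunit, had a value of 0.19 (SE 0.16, adjusted p = 0.813, limma) with overlapping groups.

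**Figure D2:**
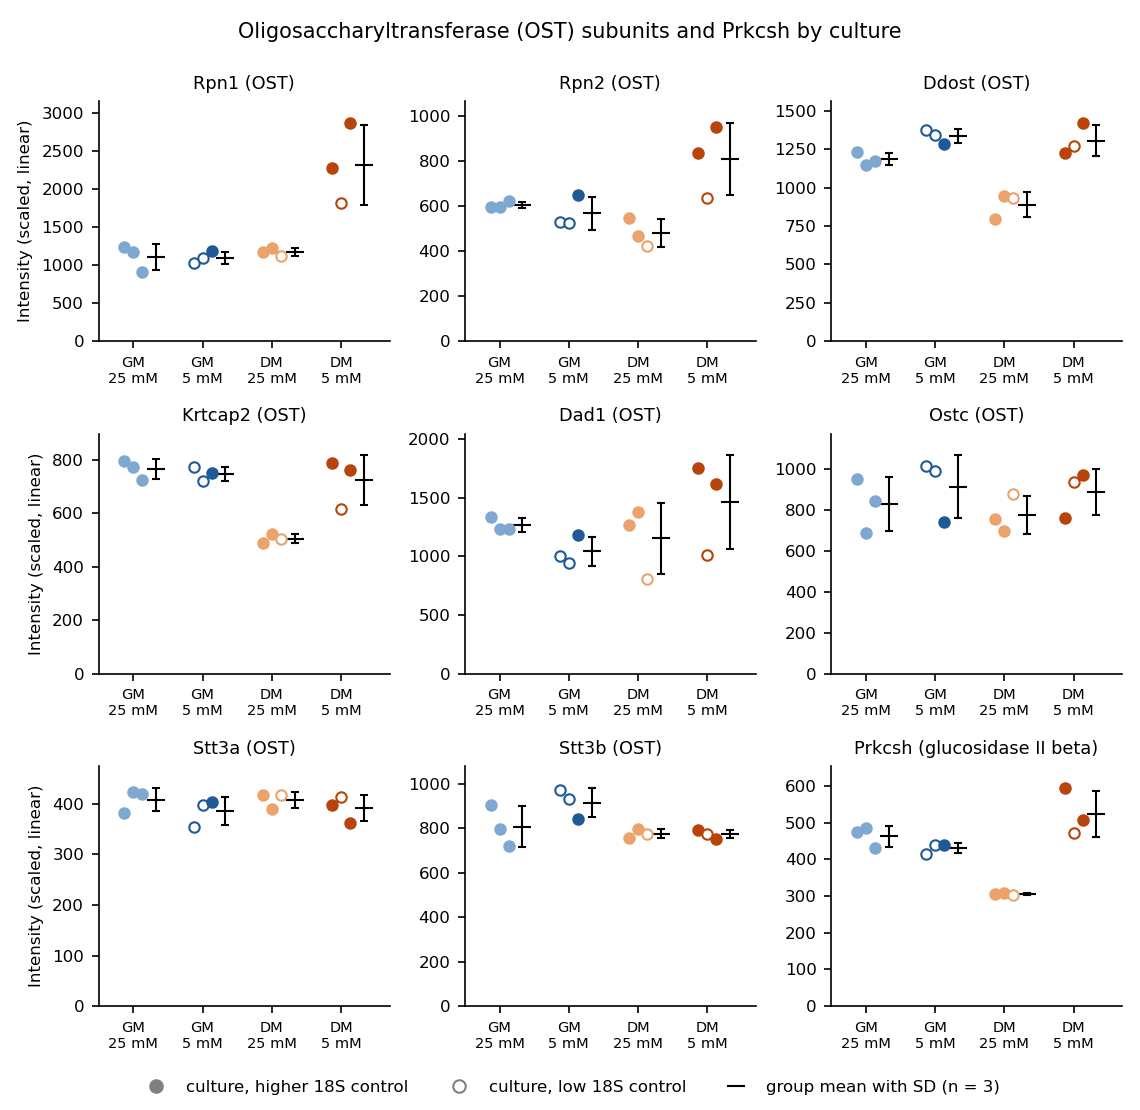
Scaled linear intensity of the 8 OST subunits on the member list and of Prkcsh in each culture, by medium and glucose. Open circles are the 4 cultures with a low 18S control, and bars are the group mean with SD (n = 3). Rpn1 and Rpn2 are high in DM at 5 mM, while Ddost, Krtcap2 and Prkcsh are low in DM at 25 mM, and Stt3a and Stt3b show neither pattern.

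Prkcsh read 475, 484 and 429.8 in GM at 25 mM, 414, 438 and 440.2 in GM at 5 mM, 306, 309 and 301 in DM at 25 mM, and 594, 471 and 506 in DM at 5 mM. DM at 25 mM was the lowest group and none of its cultures reached any other group. The change with glucose in DM was 0.73 (SE 0.11, adjusted p = 0.00306, limma). Ganab, the catalytic subunit of the same glucosidase, read higher in all 3 DM cultures at 5 mM than at 25 mM but was not called (0.22, SE 0.16). The other trimming enzymes, Mogs (glucosidase I, 0.19) and Man1b1 (ER mannosidase I, 0.34), were not called either.

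Outside OST and trimming no member was called with glucose in DM. The nearest were Sec61b, the beta subunit of the channel (0.48, SE 0.13), and Ssr4, the delta subunit of the translocon-associated TRAP complex (0.46, SE 0.12), both at adjusted p = 0.0871 (limma). The DM groups did not overlap for 14 members, 13 of them higher at 5 mM and 1 (Dpm1) lower, where 7.71% of MA probe sets were wholly higher and 6.8% wholly lower. The role medians were 0.41 for OST, 0.31 for the lectin chaperones listed together with Uggt1, 0.28 for trimming, 0.20 for the translocon and 0.19 for TRAP. They were 0.15 for the mannose supply, 0.14 for EDEM, 0.09 for signal peptidase, 0.03 for the lipid-linked oligosaccharide and 0.01 for the SRP receptor.

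How firmly each of these 5 calls stood differed. Prkcsh was called under all 25 alternative settings that left it a probe set (adjusted p 0.000471 to 0.0415, limma), and Rpn1 under 24 of 26. The exceptions for Rpn1 were a fit on the 6 DM cultures alone (0.0623) and leaving out probe sets of the _x_at, _s_at and _a_at types (0.970). That last choice left a dim MB probe set for Rpn1 and none for Prkcsh or Rpn2, which were not tested there. Rpn2 was called under 19 of 25, Ddost under 17 of 26 and Krtcap2 under 9 of 26. Rpn2 was no longer called without DM 25 mM culture 2 or 3 or without DM 5 mM culture 1 or 3 (0.0845 to 0.136), and Ddost was not without DM 25 mM culture 1 or 2 or any 1 DM 5 mM culture (0.0516 to 0.166). Krtcap2 was not called without any 1 culture other than DM 5 mM culture 2 (0.0531 to 0.203).

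Adding the 18S level as a block gave 8 called members, the same 5 with Sec61b (0.48, adjusted p = 0.0150), Ssr4 (0.46, adjusted p = 0.0191) and Calr (0.39, adjusted p = 0.0333). Over all probe sets the calls rose from 234 to 613 with this block (2.26%), so more calls were made throughout and the larger member count is read against that. In the higher-18S cultures alone, 7 members were called: Rpn1 (1.08), Rpn2 (0.80), Prkcsh (0.80), Sec61b (0.61), Krtcap2 (0.60), Ddost (0.59) and Calr (0.51), with adjusted p from 0.00566 to 0.0493 (limma) and 0.602% of all probe sets called. Each of the 5 changes was thus at least as large without the low-18S cultures. Both proliferation markers, Mki67 (-0.92) and Top2a (-0.62), were also called lower at 5 mM in DM. Their summed level was 674 to 751 units in DM at 25 mM and 378 to 461 in DM at 5 mM, against 1971 to 2300 in the 6 GM cultures, and their part in the members' changes was not tested. None of the 5 muscle markers was called with glucose in DM. Ckm nonetheless lay lower at 5 mM without overlap (-0.62, adjusted p = 0.280, limma). The other muscle markers overlapped, with Myh3 at -0.52, Acta1 at -0.32, Mymk at -0.05 and Myog at 0.01.

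Rpn1 had 5 probe sets on MA, and all 5 were called higher at 5 mM in DM, with changes from 0.72 to 1.08. These are of types that can match related or several transcripts, and the only other Rpn1 probe set, on MB with a mean of 88.2 units, stood at 0.73 with an SE of 0.58. Over the 5 called members, other MA probe sets existed for Rpn1 and Krtcap2, and all 5 of them had the same sign, with 4 called.

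The same comparison in GM gave no call. Of the 44 members 0 were called by limma, and the median log2 change was 0.01 with 24 above 0. An unadjusted p under 0.05 (limma) was found for 3 members and for 2405 of 27081 probe sets on both designs. The background was 0.00369% of all probe sets and 0.00737% of MA. Groups did not overlap for 8 members that were higher at 5 mM and 3 that were lower, against 8.46% and 9.27% of MA probe sets. Among the 8 were the signal peptidase subunits Spcs1 (0.68, SE 0.21), Spcs2 (0.23, SE 0.15) and Sec11a (0.23, SE 0.12), with adjusted p of 0.404, 0.533 and 0.488 (limma), while Spcs3 (0.32, SE 0.18) overlapped. In GM at 5 mM, cultures 1 and 2 had the low 18S control, and no GM culture at 25 mM did. Those cultures read 1595 and 1682 for Spcs1, 732 and 674 for Spcs2, 782 and 744 for Sec11a, and 579 and 619 for Spcs3. Culture 3 read 1409, 593, 708 and 412, lower for each gene but, except for Spcs3, still above all GM 25 mM cultures. The part of the 18S level in these signal peptidase changes was not tested. With array weights 2 members were called in GM, where 3.18% of all probe sets were called, so that count is near its background.

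The difference between the glucose change in DM and that in GM was tested as an interaction. Prkcsh alone was called (0.83, SE 0.16, adjusted p = 0.0329, limma), or 2.27% of members, against 0.284% of all probe sets and 0.53% of MA, and 12 members had an unadjusted p under 0.05. The Prkcsh call held under 11 of 24 alternatives (adjusted p 0.00499 to 0.220) and ended without any 1 of 9 of the 12 cultures (0.0633 to 0.122), all but GM 25 mM culture 3, GM 5 mM culture 3 and DM 5 mM culture 2. Rpn1 (0.95, SE 0.23) and Rpn2 (0.82, SE 0.21) had differences as large but adjusted p of 0.118 and 0.145 (limma). So apart from Prkcsh, a glucose response particular to DM was not shown for a member at its chosen probe set. At 2 of the other Rpn1 probe sets the interaction was called, at 1.15 (adjusted p = 0.0498) and 0.86 (adjusted p = 0.0429).

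Other genes of the ER lumen did not all move the same way as OST. From a reference list of 14 genes of the unfolded protein response, 1 was called higher and 3 lower at 5 mM in DM. Hspa5, the chaperone BiP, read 3348, 3185 and 2888 in DM at 25 mM and 875, 1086 and 1063 in DM at 5 mM, with 1723 to 2562 over the 6 GM cultures. DM at 25 mM lay above and DM at 5 mM below all GM cultures, and the change was -1.62 (SE 0.16, adjusted p = 0.000118, limma). Manf (-1.36) and Creld2 (-1.64), also proteins of the ER lumen, fell as well. Pdia6, a protein disulfide isomerase, rose (0.83, SE 0.14, adjusted p = 0.00573, limma), and so did Dnajb11, a co-chaperone of BiP, from the list of other translocon factors (0.96, SE 0.17, adjusted p = 0.00857, limma). The Dnajb11 call ended without DM 25 mM culture 1 or DM 5 mM culture 1 or 3 (0.0506 to 0.0570). Others of that translocon list did not share this rise: the DM groups overlapped for Sec61a2, Tram1, Bcap31, Sil1 and Hyou1.

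**Figure D3:**
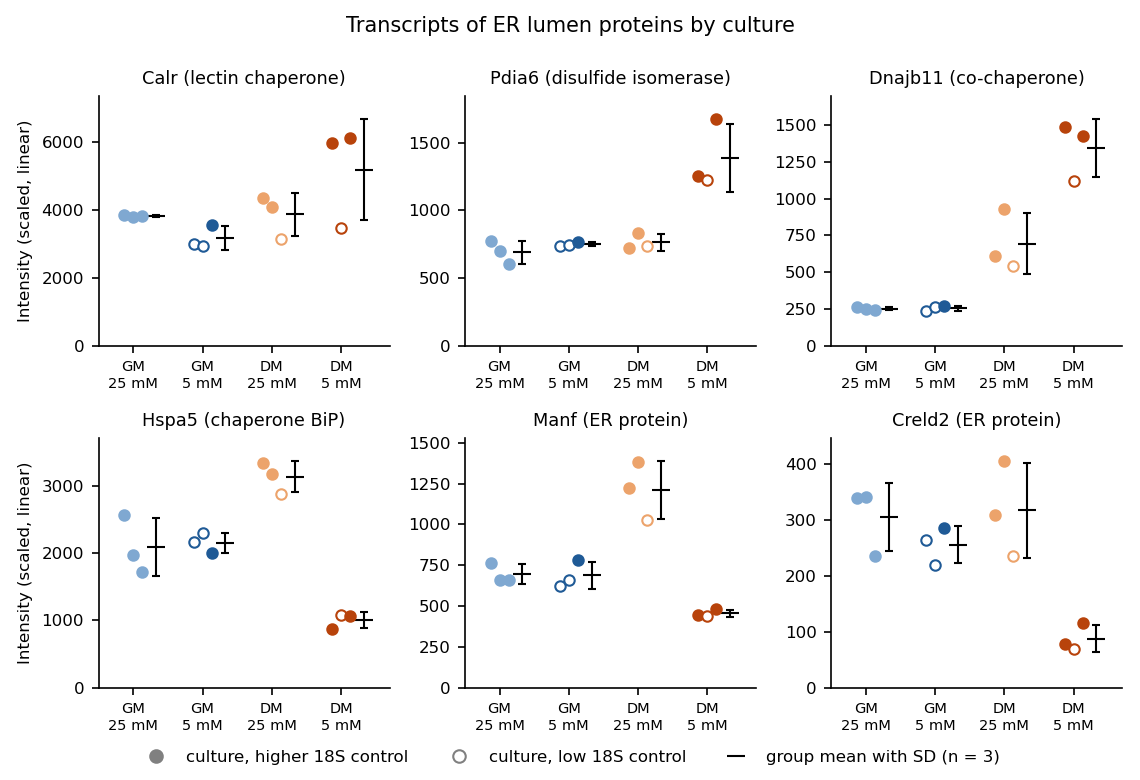
Scaled linear intensity by culture of Calr and of 5 genes outside the member list, with symbols as in the plot of OST subunits. At 5 mM in DM, Pdia6 and Dnajb11 lie above and Hspa5, Manf and Creld2 below their levels at 25 mM, without overlap, whereas the Calr groups overlap.

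Interactions of medium and glucose were called for Hspa5 (-1.69), Manf (-1.34) and Herpud1 (-1.85), opposite in sign to Prkcsh. The ER stress response element was in the promoters of 5 of the 11 reference genes that matched the table. These were Hspa5, Creld2, Pdia6, Hsp90b1 and Dnajc3, and the second form was in 1 of the 11, Herpud1. Hspa5 and Creld2 fell, Pdia6 rose, and Hsp90b1 (0.34) and Dnajc3 (0.31) were not called. Among the 2 members with the element, Canx stood at 0.31 (SE 0.13) and Calr at 0.39 (SE 0.22) with glucose in DM, neither of them called.

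The second question was how the members differed between media, at each glucose level. These comparisons share cultures with the glucose comparisons, since DM at 25 mM and DM at 5 mM serve in both. At 25 mM, 12 of 44 members were called, 6 higher and 6 lower in DM, a share of 27.3%, where 21.3% of all probe sets and 35.6% of MA were called (15.3% of MA higher, 20.3% lower). At 5 mM, 15 were called, 11 higher and 4 lower, a share of 34.1%, against 17.6% of all probe sets and 29% of MA (12% higher, 17% lower). Since 43 of the 44 members are on MA, the total counts are near that design's background. The directions were not all near it. At 5 mM the share of members called higher (11 of 44) was above the 12% of MA. The share called lower was below that of MA at both glucose levels. The median absolute log2 change of members was 0.22 at 25 mM and 0.26 at 5 mM, against 0.40 and 0.33 over MA.

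Scaling bears on the direction at 25 mM. Centring each array on its median moved the median of all probe sets from -0.09 to 0.07 at 25 mM, and the split of called members from 6 higher and 6 lower to 8 and 3, with quantile normalization giving 5 and 8. With centring the calls at 25 mM of Ddost (-0.21, adjusted p = 0.197), Dpagt1 (-0.41, adjusted p = 0.0571) and Edem1 (adjusted p = 0.0668) ended, and with quantile normalization that of Ssr4 (adjusted p = 0.0560, limma). No called member changed sign under either scaling, in any comparison. Over all probe sets the split at 25 mM moved from 2663 higher and 3111 lower to 3573 and 1892 with centring.

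The low-18S cultures and the type of probe set bear on the calls at 5 mM. In the higher-18S cultures alone, 7 of the 15 calls ended: Sec62 (adjusted p = 0.0980), Srprb (0.201), Spcs2 (0.0586), Sec11c (0.314), Rpn2 (0.0782), Canx (0.465) and Edem1 (0.0931, limma), with GM reduced to 1 culture. Leaving out probe sets of the _x_at, _s_at and _a_at types left 34 members with a probe set. The calls of Sec62 (0.25, adjusted p = 0.271), Ssr4 (0.12, adjusted p = 0.903), Srprb (0.49, adjusted p = 0.0970), Sec11c (adjusted p = 0.784) and Rpn1 (0.25, adjusted p = 0.921, limma) then ended. Rpn2, Dpagt1, Alg2 and Calr had no probe set left and were not tested there.

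**Figure D4:**
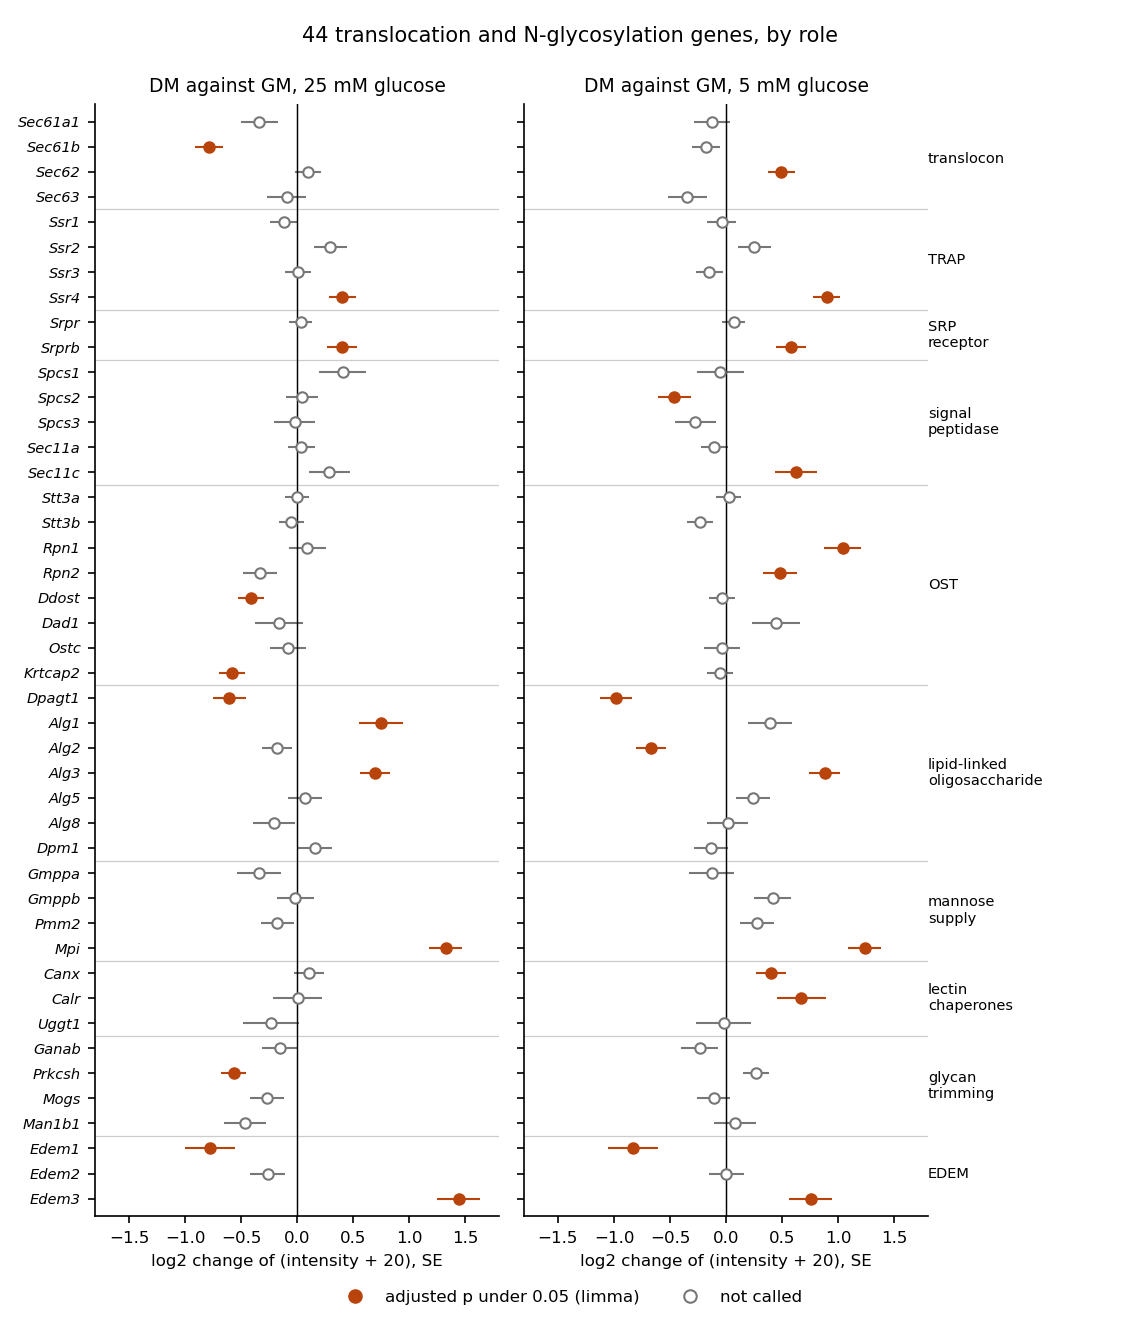
Log2 change of (intensity + 20) from GM to DM, with its SE, at 25 mM (left) and 5 mM glucose (right) for the 44 members grouped by role, with called members filled. Mpi, Alg3 and Edem3 lie right of 0 and Dpagt1 and Edem1 left of 0 at both glucose levels.

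Called at both glucose levels were 7 members, all in the same direction: Ssr4, Srprb, Alg3, Mpi and Edem3 higher in DM, and Dpagt1 and Edem1 lower. Another 5 were called at 25 mM alone and 8 at 5 mM alone, and 24 members were called in none of the 5 comparisons. Of the 5 called at 25 mM alone, Ddost (-0.41), Krtcap2 (-0.58) and Prkcsh (-0.57) are those described above with their lowest values in DM at 25 mM, and Sec61b (-0.79) shared that order. The Ddost call at 25 mM ended without DM 25 mM culture 1 (0.0657).

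In the channel, Sec61a1, its pore-forming subunit, read 1012, 915 and 1117 in GM at 25 mM, 896, 935 and 968 in GM at 5 mM, 810.5, 943 and 661 in DM at 25 mM, and 819.7, 703 and 1076 in DM at 5 mM. The media overlapped at both glucose levels, with changes of -0.34 (SE 0.16, adjusted p = 0.122) and -0.13 (SE 0.16, adjusted p = 0.625, limma). Of its 5 other MA probe sets, 1 was called lower in DM at both levels (-0.59 and -0.46) and the rest were not called, so the probe sets disagreed. Sec61b read 1344, 1397 and 1614 in GM at 25 mM and 740.4, 818 and 945 in DM at 25 mM, against 1288, 1282 and 1400.3, and 1196, 1101 and 1195, at 5 mM. DM lay below GM without overlap at both levels, by -0.79 (SE 0.13, adjusted p = 0.000204, limma) at 25 mM and -0.18 (SE 0.13, adjusted p = 0.321) at 5 mM. Sec62, which aids posttranslational import, went the other way at 5 mM, with 643, 640.3 and 673 in GM and 948, 913 and 916 in DM (0.49, SE 0.12, adjusted p = 0.00514, limma). Sec63, its partner, was called in neither comparison.

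Of the 4 TRAP subunits, Ssr4 was called at its chosen probe set and Ssr1, Ssr2 and Ssr3 were not, although an MB probe set of Ssr1 was called higher in DM at 25 mM (0.82). It read 519, 584 and 681 in GM at 25 mM, 643, 554 and 538 in GM at 5 mM, 765, 789.8 and 809 in DM at 25 mM, and 1075, 1104 and 1091 in DM at 5 mM. DM lay above GM at both glucose levels, by 0.40 at 25 mM (adjusted p = 0.0177) and 0.90 at 5 mM (adjusted p = 5.05e-05, limma). The call at 25 mM ended without GM 25 mM culture 1 (0.0802), and a dim second probe set of 58.8 mean units was called the other way there (-0.53). Srprb, the membrane anchor of the SRP receptor, was higher in DM by 0.40 at 25 mM and 0.58 at 5 mM. At 25 mM its call ended without GM culture 1 or 2 or DM culture 1 or 2 (0.0681 to 0.0868). Srpr, its partner, was at 0.03 and 0.07 and was not called.

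Signal peptidase was called for 2 of 5 subunits, at 5 mM alone and in opposite directions. Spcs1 (0.40 and -0.05), Spcs3 (-0.02 and -0.27) and Sec11a (0.03 and -0.11) were called at neither level. The catalytic subunit Sec11c read 95.3, 86.4 and 93.7 in GM and 138, 199 and 127 in DM, a change of 0.62 (SE 0.18, adjusted p = 0.0202, limma). Spcs2 read 732, 674 and 593 in GM and 438, 603 and 409 in DM, where the groups overlapped, a change of -0.46 (SE 0.15, adjusted p = 0.0282, limma). Both calls rested on single cultures: Sec11c was no longer called without GM 5 mM culture 2 or DM 5 mM culture 2 (0.0694 and 0.0926), and Spcs2 was not without GM 5 mM culture 1 or 2 or DM 5 mM culture 1 or 3 (0.0774 to 0.124).

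The OST subunits Rpn1 (1.04, adjusted p = 0.000229) and Rpn2 (0.48, adjusted p = 0.0263, limma) were higher in DM at 5 mM, and at 25 mM they stood at 0.09 and -0.33, uncalled. The Rpn2 call ended without GM 5 mM culture 1 or 2 or DM 5 mM culture 1 or 3 (0.0840 to 0.123). Stt3a, Stt3b, Dad1 and Ostc were called at neither level, with values from -0.17 to -0.00069 at 25 mM and from -0.23 to 0.45 at 5 mM. Of 4 further OST genes from the other-subunit list, Tusc3 was lower in DM at both levels (-1.13 and -1.11) and Tmem258 at 25 mM (-0.87), where a brighter probe set of Tmem258 stood at -0.17 (adjusted p = 0.786, limma).

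Assembly of the lipid-linked sugar showed opposite directions among its enzymes. Dpagt1, which makes the first sugar-lipid bond, read 326, 303 and 291 in GM at 25 mM, 363, 341 and 329 in GM at 5 mM, 154, 241 and 197 in DM at 25 mM, and 152, 181 and 160.4 in DM at 5 mM. All 6 DM cultures lay below all 6 GM cultures, with changes of -0.60 (SE 0.15, adjusted p = 0.00501) at 25 mM and -0.98 (SE 0.15, adjusted p = 0.000128, limma) at 5 mM. Alg3, a mannosyltransferase acting on the lumenal side, read 140.3, 159 and 128 in GM at 25 mM, 117, 113 and 148 in GM at 5 mM, 252, 239 and 235 in DM at 25 mM, and 240.2, 247 and 254 in DM at 5 mM. Here all 6 DM cultures lay above all 6 GM cultures, with changes of 0.70 and 0.88 (SE 0.13 each, adjusted p = 0.00102 and 0.000167, limma).

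The mannosyltransferases Alg1 and Alg2, which add the first mannoses on the cytosolic side, differed too. Alg1 read 95.2, 80.6 and 54.9 in GM and 164, 131 and 128 in DM at 25 mM, a change of 0.75 (adjusted p = 0.00895), with 0.39 at 5 mM not called. Alg2 read 356, 327 and 329 in GM and 223, 216 and 178 in DM at 5 mM, a change of -0.67 (adjusted p = 0.00152, limma), with -0.18 at 25 mM not called. Alg5, Alg8 and Dpm1 were called in neither comparison.

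Mpi, mannose phosphate isomerase, which feeds fructose phosphate from glycolysis into the mannose of glycans, read 192, 139 and 177 in GM at 25 mM, 162, 172 and 139 in GM at 5 mM, 475, 459 and 419.7 in DM at 25 mM, and 411, 337 and 451 in DM at 5 mM. The media did not overlap, and the mean in DM was 2.67 times that in GM at 25 mM and 2.53 times at 5 mM. The changes were 1.33 (adjusted p = 6.97e-06) and 1.23 (adjusted p = 1.61e-05, limma; SE 0.15 each), and with glucose they were -0.08 in GM and -0.18 in DM. Gmppa, Gmppb and Pmm2, the next enzymes toward GDP-mannose, were called in neither medium comparison at their chosen probe sets. Of the 3 other Gmppa probe sets on MA, 2 were called lower at 25 mM (-0.63 and -0.55).

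Of the 3 genes listed with the lectin chaperones (Canx, Calr and Uggt1), 2 (Canx and Calr) were called between media at 5 mM and none at 25 mM, and none was called for the interaction. Canx, calnexin, read 749, 901 and 881 in GM at 25 mM, 733, 883 and 952 in GM at 5 mM, 988, 812 and 927 in DM at 25 mM, and 1204, 1171 and 1026 in DM at 5 mM. DM lay above GM at 5 mM (0.40, SE 0.13, adjusted p = 0.0369, limma), and the call ended without GM culture 1 or 2 or DM culture 1 or 2 of that level (0.0691 to 0.178). Calr, calreticulin, read 3843, 3783 and 3824 in GM at 25 mM, 2999, 2926 and 3570.2 in GM at 5 mM, 4368, 4094 and 3142 in DM at 25 mM, and 5977, 3462 and 6126 in DM at 5 mM. The 4 lowest of the 12 readings (2926, 2999, 3142 and 3462) were those of the 4 low-18S cultures. The change at 5 mM was 0.67 (SE 0.22, adjusted p = 0.0326, limma), which ended without GM culture 1 or 2 or DM culture 1 or 3 of that level (0.101 to 0.133). Uggt1, the folding sensor, was dim on MA (39.8 mean units) and was not called in any comparison. Its MB probe set, at a mean of 1840 units, was not called either, although it read 1395, 1355 and 1904 in DM at 25 mM and 2083, 2400.3 and 2029 in DM at 5 mM without overlap (0.49, SE 0.22, adjusted p = 0.838, limma).

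Of the trimming enzymes other than Prkcsh, Ganab (-0.15 and -0.24), Mogs (-0.27 and -0.11) and Man1b1 (-0.46 and 0.08) were called at neither level, the last with an adjusted p of 0.0639 at 25 mM (limma).

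EDEM proteins split. Edem1 read 123, 112 and 133 in GM at 25 mM, 155, 179.96 and 122 in GM at 5 mM, 43.5, 60.8 and 91.6 in DM at 25 mM, and 71.8, 99.8 and 60.7 in DM at 5 mM, so DM was lower without overlap. Its changes were -0.78 (SE 0.22, adjusted p = 0.0139) and -0.83 (SE 0.22, adjusted p = 0.0114, limma), and a call ended without DM 25 mM culture 1 (0.0671) or, at 5 mM, without GM culture 2 (0.0596) or DM culture 3 (0.0531). Edem3 read 140.2, 141 and 85.6 in GM at 25 mM, 188, 185 and 142 in GM at 5 mM, 364, 315 and 405 in DM at 25 mM, and 303, 365 and 245 in DM at 5 mM. DM was higher without overlap, by 1.44 (SE 0.19, adjusted p = 3.94e-05) and 0.75 (SE 0.19, adjusted p = 0.00804, limma), while a second Edem3 probe set, on MB, stood at -0.19 and -0.25 and was not called. Edem2 was called at neither level (-0.27 and 0.0019).

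Of 90 further genes of the route that were tested from the wider lists, 30 were called at 25 mM (20 higher and 10 lower in DM) and 31 at 5 mM (20 and 11). These are total shares of 33.3% and 34.4%, near the 35.6% and 29% of MA, and the counts by list below are descriptions. By direction, the share called higher was above that of MA (15.3% at 25 mM and 12% at 5 mM). The share called lower was below that of MA (20.3% and 17%). Among 15 genes of the EMC and GET insertion routes, 5 were higher and 1 lower at 25 mM, and 6 and 1 at 5 mM, led by Emc7 (1.08 and 1.04), Emc2 (0.95 and 0.60) and Emc3 (0.75 and 0.83). The SRP list had 3 of 6 higher at 25 mM, with Srp14 at 0.97, and 1 of 6 at 5 mM. Disposal (ERAD) had 3 of 13 higher at 25 mM, Herpud1 (2.50), Ube2g2 (2.23) and Derl1, and 4 of 13 at 5 mM, with Ube2g2 at 1.59 and Derl1 at 0.90. Other dolichol enzymes had 3 of 15 lower at 25 mM, Srd5a3 at -0.80 among them, and 1 higher and 2 lower at 5 mM. Golgi glycan enzymes had 1 higher and 2 lower of 14 at 25 mM and 3 lower at 5 mM, with Man2a1 at -0.93 at 25 mM and St6gal1 at -1.10 at 5 mM. With glucose in GM 0 of the 90 were called.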

How the data were processed

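Total RNA of 12 C2C12 cultures (4 groups of 3) was measured on 24 arrays, 12 of each of 2 designs (MA with 22690 probe sets, MB with 22575). The authors deposited linear intensities per probe set. The arrays of a design share a trimmed mean with 2% left out at each end, so the deposited intensities had been scaled between arrays, and the software and its settings are not given in the sources used here. Probe sets were named from the platform annotation, which gives 1 symbol for 20393 MA and 14674 MB probe sets, and those with several symbols were not used. Sec61g had no probe set naming it alone.

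Within a design, probe sets with a mean intensity over the 12 arrays above its 40th percentile (35.5 for MA, 63.7 for MB) were tested. Values were taken as log2(intensity + 20), which understates changes of dim probe sets, and fitted with limma 3.58.1 (R 4.3.3) as 4 group means over all 12 arrays, with an intensity trend. Benjamini-Hochberg adjustment was over a design, and an adjusted p under 0.05 was a call. The interaction is the log2 change from 25 mM to 5 mM in DM minus that in GM. The fit was tested on simulated data. The number of arrays limits the precision. The members and lists were chosen with earlier results of these data known. Every member is accounted for by role, and values by culture are given for those with the largest called changes, for members of contrasting direction and for Sec61a1, Stt3a, Stt3b, Dpagt1, Canx, Calr and Edem1. Genes outside the members are named from fixed lists, by the size of a called change or, for the genes in the plot of ER lumen transcripts and those with a promoter element, after their values were seen. Promoter sequences are RefSeq's (GRCm38.p6) and were searched on both strands. Alternatives were the pseudocount, the filter, quantile normalization, median centring, array weights, no trend, the arrays compared alone, the replicate number or the 18S level as a block, the higher-18S cultures alone, other probe set choices, and each culture left out in turn.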

Additional observations from a re-analysis of the deposited data

Results flagged for a closer look

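Genes and probe sets are given here because their change with glucose in DM differed from that in GM by the interaction term (limma, adjusted p under 0.05). Among members this was Prkcsh at 0.83 on the log2 scale (adjusted p = 0.0329), with groups at 463, 431, 305 and 524 units in GM at 25 mM, GM at 5 mM, DM at 25 mM and DM at 5 mM. Rpn1 passed at 2 MA probe sets other than its chosen one, at 1.15 (adjusted p = 0.0498) and 0.86 (adjusted p = 0.0429), both called higher at 5 mM in DM and not in GM. Of the reference genes, Hspa5 stood at -1.69 (adjusted p = 0.00671), Manf at -1.34 (adjusted p = 0.00709) and Herpud1 at -1.85 (adjusted p = 0.0274), all in the opposite direction. The Hspa5 and Manf calls held under every alternative that gave a value, while that of Herpud1 held under 13 of 25.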

How the results depend on the processing

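The count of members called between media at 25 mM (12) ranged from 9 to 13 over the alternatives, as it did with each culture left out. At 5 mM (15) it was 23 with array weights and 9 to 15 with each culture left out (9 without GM 5 mM culture 2). Leaving out the _x_at, _s_at and _a_at types gave 7, where only 34 of the 44 members kept a probe set. With glucose in GM (0 called) array weights gave 2, and leaving out each culture gave 0. With glucose in DM (5) median centring gave 3, no trend 2, the arrays compared alone 1, and the 18S block 8. The 34 members left without those types gave 2, and leaving out each culture 2 to 4, with 2 without DM 25 mM culture 2, DM 5 mM culture 1 or DM 5 mM culture 3. For the interaction (1) quantile normalization gave 2, median centring 0, no trend 0, and array weights 4. The 34 members left without those types gave 0, and leaving out each culture 0 to 3, with 3 without DM 5 mM culture 2. Without those types, Srprb at 25 mM became -0.055 and Sec11c at 5 mM -0.52, and with the brightest probe set on either design Srd5a3 became 1.27 at 25 mM and 0.21 at 5 mM. These use other probe sets of the gene, and the cause of the other shifts was not tested. With the replicate number as a block, the counts were 12, 14, 0, 3 and 0 in the order above. Deviations of same-numbered cultures correlated from -0.56 to 0.52 on MA (median -0.03) and from -0.22 to 0.24 on MB (median -0.04). The highest MA value joined 2 low-18S cultures (GM 5 mM culture 2 and DM 5 mM culture 2). The lowest joined a higher-18S and a low-18S culture (GM 5 mM culture 3 and DM 25 mM culture 3). The values thus mix 18S level with number and could not settle whether the numbers pair the cultures. The higher-18S setting leaves GM at 5 mM with 1 culture, assumed to vary like the other groups.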
